A study of Mus musculus with 20 samples.

Results

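RNA levels of the hippocampus and the cortex were compared in mice that had received YB-1, and the comparison rests on 10 of the 20 libraries of the study: 5 hippocampal and 5 cortical ones labelled YB1. These libraries were chosen by their labels alone, and a hippocampal and a cortical library of the same replicate number were taken as a pair. The animals were NMRI mice, an outbred stock. The olfactory bulbs of every animal had been removed, an operation used to model sporadic Alzheimer's disease. Recombinant YB-1 was given through the nose daily at 6.4 μg, beginning 14 days after the operation and continuing for 21 days. The other 10 libraries came from bulbectomised NMRI mice given 4 μg of human recombinant HSP70 on the same schedule, and they enter only where the regional contrast is set beside theirs. Intact and vehicle-treated mice were not analysed here. A regional difference below therefore describes operated, YB-1-treated animals and not an effect of the operation or the protein. The labels state neither the age and sex of the animals nor which animal gave which library, and p-values measure the spread between these libraries.

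YB-1, the product of Ybx1, is a cold shock domain protein that binds DNA and RNA and regulates transcription and translation. The hippocampus is a folded sheet of allocortex in which granule cells of the dentate gyrus send mossy fibres to CA3 pyramidal cells, which in turn project to CA1, and it serves the formation of memories. The neocortex is built of stacked layers, whose upper neurons connect cortical areas and whose deep neurons project to the thalamus, brainstem and spinal cord. Both regions share the same broad classes of neurons, glia and vessels, so that a regional comparison is read through genes that mark subtypes and through the proportions of cell types. In bulk tissue, fewer cells of a type and less RNA per cell cannot be told apart, and this holds for every cell type marker below.

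The YB-1 libraries held 7236195 to 10166968 reads assigned to genes in the hippocampus and 6414215 to 10763465 in the cortex. Levels are given as CPM, the counts relative to library size, after TMM scaling, a correction for composition. A hippocampal library deviated from its group in the same direction as the cortical library of its number, with correlations over 13694 genes of 0.214, 0.259, 0.249, 0.266 and 0.423 for replicates 1 to 5. Hippocampal replicate 1 was an exception in rank, since it correlated more with cortical replicates 3 (0.318) and 5 (0.387) than with its own number. Cortical replicate 3 in turn correlated more with hippocampal replicate 1 than with its own number (0.249). The class I histocompatibility gene H2-D1, which was singled out after its values were seen, was at 363, 369, 1310.4, 198 and 1900.5 CPM in hippocampal replicates 1 to 5. In cortical replicates 1 to 5 it was at 272, 340.5, 1283, 189 and 2379.5 CPM, so that replicates 3 and 5 stood above the others in both regions.

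Among the marker lists, 13 of 13 choroid plexus, 17 of 20 myelin and 8 of 14 dentate granule cell genes tested were higher in the hippocampus, and 12 of 15 upper-layer cortical genes were lower. With the replicate as a block, edgeR's quasi-likelihood test found 1065 of 13694 genes (7.78%) past an adjusted p of 0.05 (Benjamini-Hochberg) and so called them different, 515 higher (3.76%) and 550 lower (4.02%) in the hippocampus. The higher genes had a median fold of 2.05 and a smallest fold of 1.34, and the lower genes 1.80 and 1.34. Estimates above 4-fold were more frequent among the higher genes (69) than among the lower ones (27), and 68 higher and 40 lower genes exceeded 2-fold in a test against that size (0.789% of all tested). Of the called genes, 470 higher and 507 lower ones had the same direction in 5 of 5 pairs. In 329 higher and 356 lower ones the 5 values of the regions did not overlap, against 446 higher (3.26%) and 448 lower (3.27%), or 894 (6.53%), of all tested genes. The median log2 fold change of all tested genes was -0.0007. Without the pairs of replicates 3 and 5, whose hippocampal libraries held the highest levels of thalamic markers, 412 genes were called, 187 higher and 225 lower. That fit has fewer libraries, so list counts from it are to be read beside this drop over all genes.

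**Figure D1:**
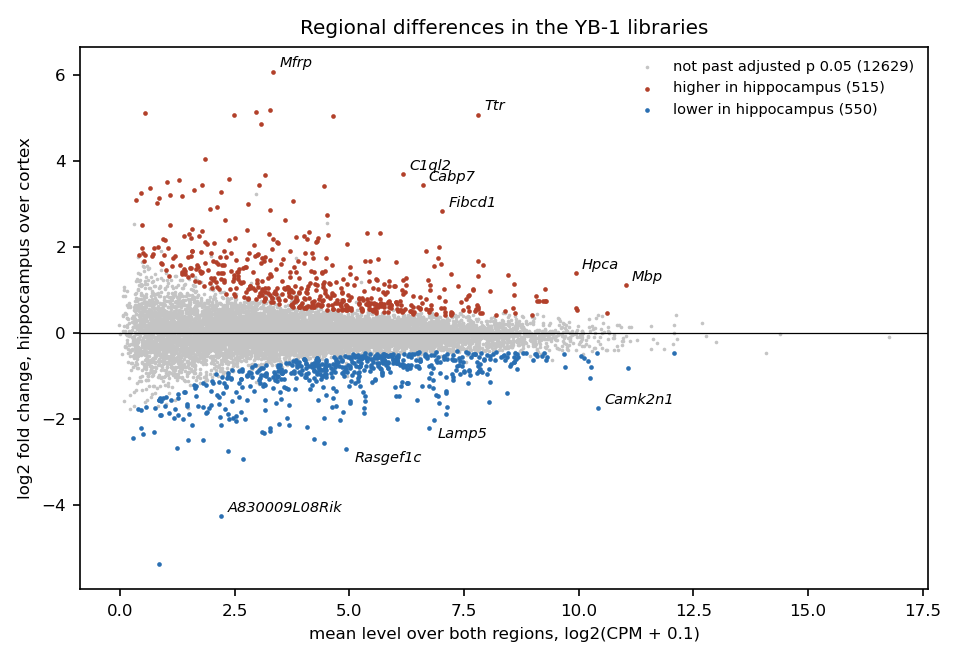
Log2 fold change of the hippocampus over the cortex against the mean level, as log2(CPM + 0.1), for the 13694 genes tested in the YB-1 libraries. Red points are the 515 genes higher and blue points the 550 genes lower in the hippocampus at an adjusted p of 0.05, and grey points did not pass; Cabp7 and C1ql2 lie high at well-measured levels.

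The smallest p belonged to Cabp7 (ENSMUSG00000009075), which encodes an EF-hand calcium-binding protein of neurons. It was at 172, 174, 211, 167 and 159.5 CPM in hippocampal replicates 1 to 5 and at 13.1, 20.9, 22.7, 13.3 and 12.96 CPM in cortical replicates 1 to 5. The regions did not overlap, and the log2 fold change was 3.45 ± 0.15 (SE; adjusted p = 2.39e-12, higher in 5 of 5 pairs). Next came C1ql2 (ENSMUSG00000036907), which encodes a secreted C1q-like protein of mossy fibre synapses. Its hippocampal values were 119, 137, 159.8, 84.2 and 171 CPM and its cortical values 10.6, 16.4, 11.3, 5.81 and 8.30 CPM, again apart in each pair (3.71 ± 0.18, adjusted p = 8.61e-12, 5 of 5 pairs). Among the genes lower in the hippocampus, Plxnd1 (ENSMUSG00000030123), a receptor for class 3 semaphorins, was at 71.7, 69.0, 52.9, 40.7 and 62.1 CPM in the hippocampus and 200.1, 194, 221, 246 and 209.7 CPM in the cortex (-1.87 ± 0.16). A830009L08Rik (ENSMUSG00000097182), a long noncoding RNA, was at 0.639, 0.361, 0.655, 0.399 and 0.185 CPM against 9.84, 7.24, 8.37, 10.9 and 6.53 CPM (-4.25 ± 0.36). Neither gene overlapped between the regions.

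The 250 bases before the start of these 4 genes are shown because they were, in each direction, those with the smallest p that had a single start in the RefSeq table and no annotated exon in the window. Coordinates are of GRCm38.p6, each sequence is read 5′ to 3′ on the gene's strand, and capitals would mark a match to the motifs below. The windows are chr11:4747180-4747429 (strand -) and chr1:120340332-120340581 (strand +) for the higher genes, and chr6:115995006-115995255 (strand -) and chr13:91388086-91388335 (strand -) for the lower ones.
Cabp7: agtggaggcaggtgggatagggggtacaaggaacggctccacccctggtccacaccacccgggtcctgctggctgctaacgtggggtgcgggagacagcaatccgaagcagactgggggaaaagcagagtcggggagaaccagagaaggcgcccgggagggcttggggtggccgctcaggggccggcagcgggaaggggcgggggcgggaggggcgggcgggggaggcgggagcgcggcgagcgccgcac
C1ql2: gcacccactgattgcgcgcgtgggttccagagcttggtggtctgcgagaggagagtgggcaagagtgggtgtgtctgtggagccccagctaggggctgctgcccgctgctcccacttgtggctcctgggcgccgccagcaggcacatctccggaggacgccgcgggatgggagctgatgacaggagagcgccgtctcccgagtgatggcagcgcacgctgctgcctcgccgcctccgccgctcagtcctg
Plxnd1: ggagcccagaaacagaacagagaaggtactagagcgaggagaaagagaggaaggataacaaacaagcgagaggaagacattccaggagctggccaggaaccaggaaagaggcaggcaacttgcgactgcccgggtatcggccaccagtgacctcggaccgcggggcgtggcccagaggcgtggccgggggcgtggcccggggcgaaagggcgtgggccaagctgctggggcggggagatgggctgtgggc
A830009L08Rik: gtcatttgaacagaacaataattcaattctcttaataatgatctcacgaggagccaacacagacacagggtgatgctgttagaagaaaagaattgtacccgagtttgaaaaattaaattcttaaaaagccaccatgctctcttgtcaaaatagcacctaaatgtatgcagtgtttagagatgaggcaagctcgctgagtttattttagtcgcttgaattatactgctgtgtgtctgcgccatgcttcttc
None of the 4 windows held a searched motif on either strand, and no capitals appear. G and C made up 72.4% of the Cabp7 window, 68.8% of C1ql2, 64.8% of Plxnd1 and 38.4% of A830009L08Rik. Over the 521 windows of 390 matched genes higher in the hippocampus, the E-box CAGATG occurred in 13.8%, against 10.6% of 559 windows of 385 lower genes and 10.2% of the 13509 windows of all 10467 tested genes in the table. The cAMP response element TGACGTCA occurred in 0.960%, 2.68% and 2.50%, respectively. For the EGR site GCGTGGGCG the shares were 1.15%, 1.43% and 1.01%, and for the TATA box TATAAA 7.87%, 8.59% and 6.42%. These matches on both strands describe letters, and they were not tested.

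Dentate granule cells were represented by genes in which the regions were far apart. Among 15 listed, 14 were tested, 8 were higher and 0 lower, and 5 had negative estimates that did not pass, with a median log2 fold change of 1.46, and the same count of 8 passed without the pairs of replicates 3 and 5. Prox1, the homeobox factor that maintains granule cell identity, was at 26.4, 20.6, 21.4, 11.6 and 23.2 CPM in the hippocampus and 3.37, 2.51, 4.53, 2.91 and 3.17 CPM in the cortex. The lowest hippocampal value, that of replicate 4, was still above the highest cortical one (2.64 ± 0.23, adjusted p = 5.05e-08, 5 of 5 pairs). Lct, the lactase gene that marks granule cells, was at 53.4, 54.7, 32.2, 27.1 and 31.9 CPM against 5.14, 2.65, 3.94, 3.63 and 2.89 CPM (3.41 ± 0.21). Dsp, which encodes the desmosomal protein desmoplakin, was at 8.84, 35.5, 13.1, 10.6 and 13.01 CPM against 1.06, 0.418, 0.0985, 0.182 and 0.560 CPM. Hippocampal replicate 2 stood far above the other 4 in Dsp, and the difference of 4.86 ± 0.41 was 4.48 without that pair. Sema5a, a transmembrane semaphorin, was 3.33-fold higher (1.74 ± 0.20). The summed level of the dentate list ranged from 314 to 428 CPM in the hippocampus and 112 to 188 CPM in the cortex, without overlap.

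In the CA1 pyramidal list 6 of 11 tested markers were higher and 0 lower (median 0.78), and 4 were higher without the pairs of replicates 3 and 5. Fibcd1, which encodes a receptor for acetylated sugars, was at 137, 323, 188, 257 and 238 CPM in hippocampal and 23.3, 48.2, 35.0, 37.6 and 17.4 CPM in cortical replicates 1 to 5. All hippocampal values lay above all cortical ones, by a log2 fold change of 2.84 ± 0.17 (adjusted p = 1.25e-09). The protease inhibitor gene Spink8 (3.45 ± 0.43), the receptor gene Gpr161 (2.12 ± 0.23) and the POU factor gene Pou3f1 (1.24 ± 0.14) were also higher in 5 of 5 pairs. Wfs1, a marker of dorsal CA1 that was singled out because it did not pass, had a log2 fold change of -0.23 ± 0.18 (95% interval -0.61 to 0.15). For CA2 and CA3, 6 of 14 tested markers were higher and 1 lower (median 0.54), and 3 were higher without the pair of replicate 3, without that of replicate 5, or without the replicate block. Homer3, a postsynaptic scaffold, was 4.57-fold higher (2.19 ± 0.22), Amigo2, an adhesion protein, 2.91-fold (1.54 ± 0.19), and Vit, a matrix protein, 11.9-fold from low levels of 4.28 ± 0.751 and 0.372 ± 0.326 CPM (SD, n = 5). The member that was lower, Coch, another matrix protein, was at 3.99 ± 0.965 CPM in the hippocampus and 13.8 ± 3.36 CPM in the cortex (-1.79 ± 0.24).

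Of 12 genes shared by hippocampal neurons 9 were higher and 0 lower (median 0.85), and 5 were higher without the pair of replicate 5. Zbtb20, a repressor needed for hippocampal development, was at 52.6, 38.2, 39.8, 66.7 and 41.4 CPM in the hippocampus and 20.9, 14.6, 19.0, 9.99 and 16.9 CPM in the cortex (1.53 ± 0.20). Nr3c2, the mineralocorticoid receptor, was at 48.5, 34.2, 29.7, 34.1 and 37.4 CPM against 13.8, 10.3, 15.5, 8.90 and 13.1 CPM (1.58 ± 0.18). Both kept the regions apart in every library. Hpca, the calcium sensor hippocalcin, was at 1421, 1611, 1444, 1310.1 and 1250.2 CPM in the hippocampus and 414, 565, 584, 772 and 421 CPM in the cortex (1.39 ± 0.15). Its cortical replicate 4 was nearest to the hippocampal range but stayed below it. Lhx9, a LIM homeobox gene, was low at 2.67 ± 1.62 CPM in the hippocampus, highest in replicate 5, and 0.0642 ± 0.0619 CPM in the cortex. It fell below the count filter without replicate 5.

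**Figure D2:**
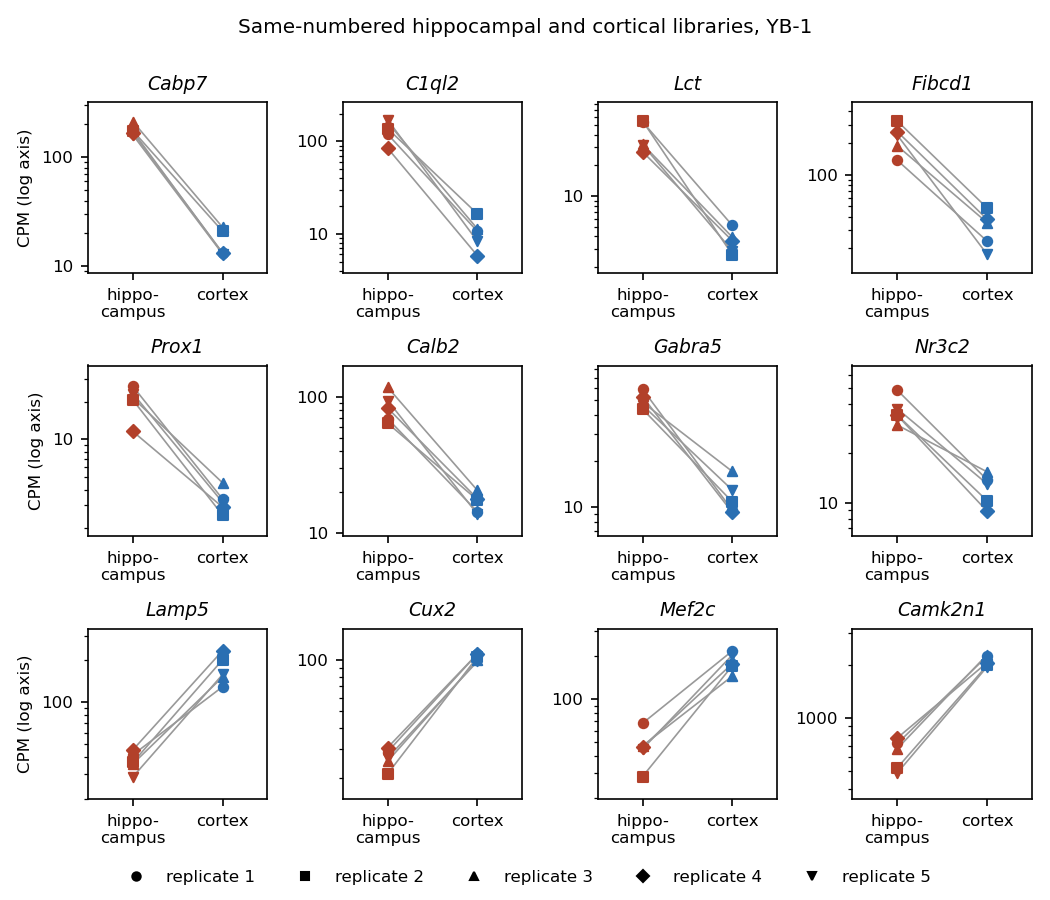
TMM-scaled CPM on log axes of 12 genes in the 10 YB-1 libraries, with lines joining libraries of the same replicate number. The upper 8 genes lie higher in the hippocampus (red) and the lower 4 in the cortex (blue), without overlap between the regions in any of them.

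Genes of the upper cortical layers formed the counterpart. Of 15 tested markers 12 were lower in the hippocampus and 1 higher (median -1.15), and 8 were lower without the pairs of replicates 3 and 5. Cux2, the homeobox factor of upper-layer neurons, was at 28.8, 21.3, 25.3, 30.5 and 26.5 CPM in the hippocampus and 109, 105, 99.9, 109 and 98.4 CPM in the cortex. Its values were tight in both regions, and the log2 fold change was -1.98 ± 0.14 (adjusted p = 3.09e-09, lower in 5 of 5 pairs). Lamp5, a lysosome-associated membrane protein of superficial neurons, was at 41.5, 36.6, 35.8, 45.1 and 28.8 CPM against 129, 202, 152, 235 and 158 CPM (-2.20 ± 0.15). Dkkl1, a dickkopf-like secreted protein, was 5.87-fold lower (-2.55 ± 0.21) and Rasgrf2, an exchange factor for Ras and Rac, 2.24-fold lower (-1.16 ± 0.16). The exception was Mdga1, an adhesion protein of upper-layer neurons, which was 3.21-fold higher (1.68 ± 0.16), in 5 of 5 pairs. The summed level of the list ranged from 454 to 582 CPM in the hippocampus and 881 to 1224 CPM in the cortex, and hippocampal replicate 4 was the highest of its region.

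The deep-layer list was mixed, with 6 of 20 tested markers lower and 2 higher (median -0.16). Leaving out the pair of replicate 2 gave 4 higher. Tbr1, a T-box factor of corticothalamic neurons, was at 53.1, 29.8, 35.8, 40.7 and 25.6 CPM in the hippocampus and 103, 108, 108, 87.4 and 89.8 CPM in the cortex, with no overlap (-1.46 ± 0.16). Cplx3, a complexin of subplate neurons, was 2.70-fold lower (-1.44 ± 0.19). Crym, a thyroid hormone-binding protein, went the other way, at 131, 227, 145, 262 and 199 CPM in the hippocampus and 66.9, 73.4, 53.1, 55.2 and 58.8 CPM in the cortex (1.61 ± 0.16). The zinc finger factor gene Bcl11b, known from subcerebral projection neurons and also from CA1 and granule cells, was higher too (0.96 ± 0.17). Its levels were 38.0 ± 7.18 and 19.4 ± 2.55 CPM.

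Among 14 genes of neocortical projection neurons 6 were lower and 1 higher (median -0.45). Mef2c, a transcription factor of activity-dependent synapse regulation, was at 67.5, 28.4, 46.8, 45.9 and 44.5 CPM in the hippocampus and 219, 172, 145, 178 and 205 CPM in the cortex (-2.01 ± 0.15). Every cortical value was above every hippocampal one. Nrgn, the calmodulin-binding protein neurogranin, was 1.76-fold lower at 1545 ± 203 and 2737 ± 468 CPM. Neurod6 was the member that went the other way: this bHLH factor was at 67.5, 53.6, 51.1, 76.4 and 59.0 CPM in the hippocampus and 15.2, 29.5, 18.2, 17.8 and 16.3 CPM in the cortex (1.69 ± 0.18). Outside the lists, Rasgef1c, a guanine nucleotide exchange factor, was at 12.3, 6.99, 6.94, 7.45 and 7.47 CPM in the hippocampus and 62.6, 56.3, 46.9, 50.3 and 47.3 CPM in the cortex (-2.70 ± 0.17). Camk2n1, an inhibitor of the calcium/calmodulin kinase CaMKII, was at 719, 525, 673, 773 and 491 CPM in the hippocampus and 2230.4, 1978, 2272, 2050.2 and 1943 CPM in the cortex. Its cortical values lay above the hippocampal ones in each library (-1.74 ± 0.14, adjusted p = 1.54e-08). Rgs6, a regulator of G protein signalling, was 4.03-fold lower (-2.01 ± 0.17), whereas Shisa6, an auxiliary subunit of AMPA receptors, was 6.75-fold higher (2.75 ± 0.20).

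**Figure D3:**
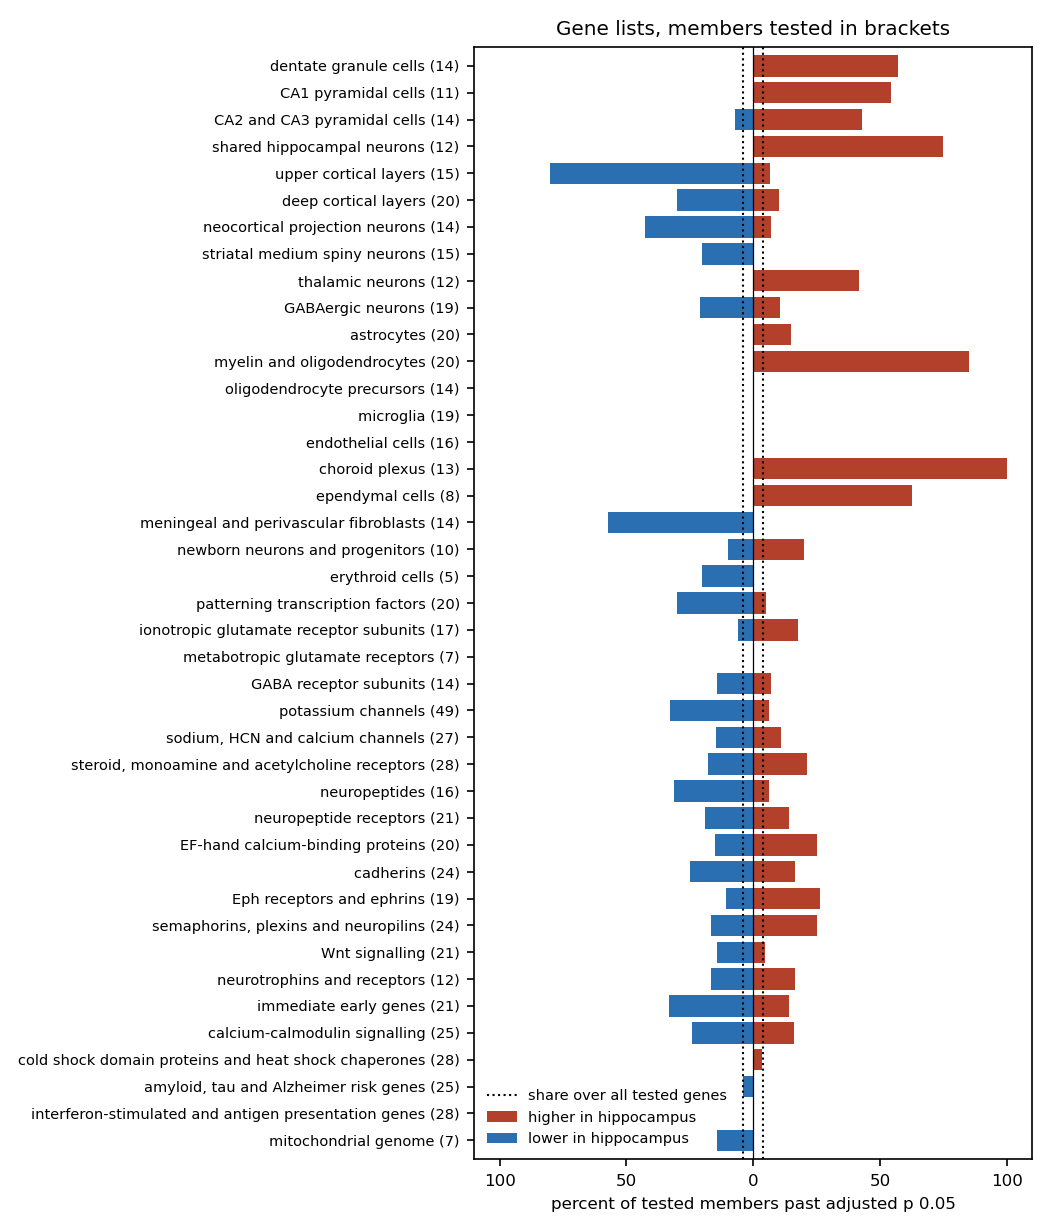
Percent of the tested members of each of 41 gene lists that were higher (red, to the right) or lower (blue, to the left) in the hippocampus at an adjusted p of 0.05, with the number tested in brackets. Dotted lines mark the shares over all tested genes, 3.76% higher and 4.02% lower; the choroid plexus, myelin and hippocampal neuron lists reach far to the right and the upper cortical layers to the left.

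Markers of neighbouring regions differed between single libraries. Of 12 tested thalamic markers 5 were higher in the hippocampus and 0 lower (median 1.03), and 1 was higher without the pairs of replicates 3 and 5. Their summed level was 129.9, 169, 417, 142 and 351 CPM in hippocampal replicates 1 to 5 and 96.5, 128, 95.2, 95.4 and 121 CPM in the cortical ones, so that hippocampal replicates 3 and 5 stood apart. Prkcd, a protein kinase C of thalamic relay neurons, was at 38.6, 63.5, 140.2, 42.6 and 102 CPM in the hippocampus and 23.6, 20.6, 16.8, 14.7 and 30.4 CPM in the cortex. The difference was 1.73 ± 0.27 with 5 pairs and 1.28 without replicates 3 and 5. Tcf7l2, a transcription factor of thalamic neurons, was at 6.92, 5.66, 20.8, 3.33 and 24.8 CPM against 3.46, 2.37, 3.94, 1.09 and 2.05 CPM. The same 2 replicates were high, and its 2.04 ± 0.34 became 1.23 (adjusted p = 0.187) without them. The thalamic homeobox gene Shox2 did not pass the count filter, and its hippocampal values were 0.426, 0.602, 7.73, 0.266 and 7.20 CPM against 0, 0.139, 0, 0 and 0 CPM in cortical replicates 1 to 5. How far thalamic tissue entered the other regional differences was not tested. Leaving these pairs out also left fewer libraries, and the calls over all genes went from 1065 to 412. In a lost call thalamic tissue and fewer libraries therefore cannot be told apart.

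Striatal markers were lower in 3 of 15 tested cases and higher in 0 (median -0.27). Their summed level was 349, 347, 430.0, 357 and 387 CPM in the hippocampus and 516, 474, 440.3, 1072 and 403 CPM in the cortex, where replicate 4 was the highest. Drd2, the D2 dopamine receptor, which was singled out after its values were seen, was at 4.90, 6.62, 11.4, 8.38 and 12.2 CPM in the hippocampus and 5.23, 6.83, 3.15, 51.1 and 3.54 CPM in the cortex. Its difference did not pass (0.17 ± 0.80), and the only high value was that of cortical replicate 4.

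Myelin genes gave the highest count among the glial lists. Of 20 tested genes of myelin and oligodendrocytes 17 were higher in the hippocampus and 0 lower (median 1.03), and 12 were higher without the pairs of replicates 3 and 5. Mbp, myelin basic protein, was at 2309.6, 2848, 3251, 2894 and 2901 CPM in the hippocampus and 1287, 1280.1, 1215, 1681 and 1134 CPM in the cortex (1.11 ± 0.14, adjusted p = 9.86e-06, 5 of 5 pairs). Mobp, a protein of the compact sheath, was at 362, 248, 333, 320.3 and 333 CPM against 175, 118, 119.8, 121 and 109 CPM (1.32 ± 0.13). Neither gene overlapped between the regions. Mog, a surface protein of the sheath (1.23 ± 0.15), and Cldn11, its tight junction protein (1.11 ± 0.14), were higher by similar amounts. Of 14 markers of oligodendrocyte precursors 0 passed in edgeR's quasi-likelihood test (median 0.16), while 5 had an unadjusted p under 0.05, DESeq2 called 2 higher and limma-voom 1 higher.

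Of the other glial and vascular lists, only the astrocyte list held called genes. Among 20 astrocyte genes 3 were higher and 0 lower (median 0.18). The higher share was 15%, against 3.76% over all tested genes, and this difference was not tested. Agt, the angiotensin precursor, was 3.73-fold higher (1.90 ± 0.34) and 1.25 on the log2 scale without the pairs of replicates 3 and 5, where its hippocampal level was highest. Hopx, a homeodomain protein known from neural stem cells of the dentate gyrus, was 2.10-fold higher (1.07 ± 0.21). The intermediate filament gene Gfap differed by 0.46 ± 0.14 and passed with 5 pairs, but not without the pair of replicate 1, 2, 3 or 5 or without the block (adjusted p = 0.19). None of 19 microglial and none of 16 endothelial markers passed in edgeR's quasi-likelihood test, DESeq2 or limma-voom, with 2 and 1 at an unadjusted p under 0.05 and medians of -0.21 and -0.28. All 19 microglial estimates were negative, and the summed microglial level ranged from 1368 to 2758 CPM in the hippocampus and 1830.4 to 3665 CPM in the cortex.

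Genes of the choroid plexus, the epithelium that secretes cerebrospinal fluid, had the highest median of the 41 lists. All 13 tested markers of 15 listed were higher (median 3.27), and 12 were higher without the pairs of replicates 3 and 5. Ttr, the thyroxine carrier transthyretin, was at 106, 725, 435, 589 and 301 CPM in hippocampal replicates 1 to 5 and 3.10, 36.2, 25.2, 4.91 and 5.97 CPM in cortical replicates 1 to 5. Replicate 2 was the highest and replicate 1 the lowest in the hippocampus, and the difference was 5.08 ± 0.46 (adjusted p = 0.00151, 5 of 5 pairs). Kl, the anti-ageing protein klotho, was 8.36-fold higher (3.06 ± 0.29), Otx2, a homeobox factor, 33.7-fold (5.08 ± 0.48) and Clic6, a chloride channel protein, 36.3-fold (5.18 ± 0.39). The summed choroid level was 299, 1939, 831, 1063 and 652 CPM in the hippocampus and 86.2, 157, 157, 88.3 and 119.8 CPM in the cortex, with a wide spread among the hippocampal libraries. Without replicate 2 the log2 fold changes were 5.33 for Ttr, 2.69 for Kl, 5.65 for Otx2 and 5.54 for Clic6. Mfrp, a frizzled-related membrane protein, had the largest fold of all called genes (6.08 ± 0.43), with 19.8 ± 25.5 and 0.277 ± 0.474 CPM. Its reads are uncertain, since its annotated gene overlaps C1qtnf5.

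Of 8 tested ependymal markers 5 were higher and 0 lower (median 1.60), 3 without the pair of replicate 2, 3 or 5, and 1 without both 3 and 5. Foxj1, the master regulator of motile cilia, was 3.09-fold higher (1.63 ± 0.22). Meningeal and perivascular fibroblast markers went the other way, with 8 of 14 tested lower and 0 higher (median -0.77), and 2 lower without the pairs of replicates 3 and 5. Ptgds, the prostaglandin D synthase of the leptomeninges, was at 838, 671, 918, 1106 and 497 CPM in the hippocampus and 1632, 1480.5, 1467, 2181 and 1364 CPM in the cortex, without overlap (-1.04 ± 0.14). The matrix genes Fmod (-1.09 ± 0.17) and Mgp (-1.03 ± 0.18) and the transporter gene Slc47a1 (-1.68 ± 0.31) were lower as well. The summed level of the list, most of which was Ptgds in every library, ranged from 685 to 1300.3 CPM in the hippocampus and 1740.4 to 2582 CPM in the cortex. Of 5 erythroid genes, a sign of blood in the tissue, 1 was lower, and 0 without the pair of replicate 1, 2 or 5 or without the block.

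**Figure D4:**
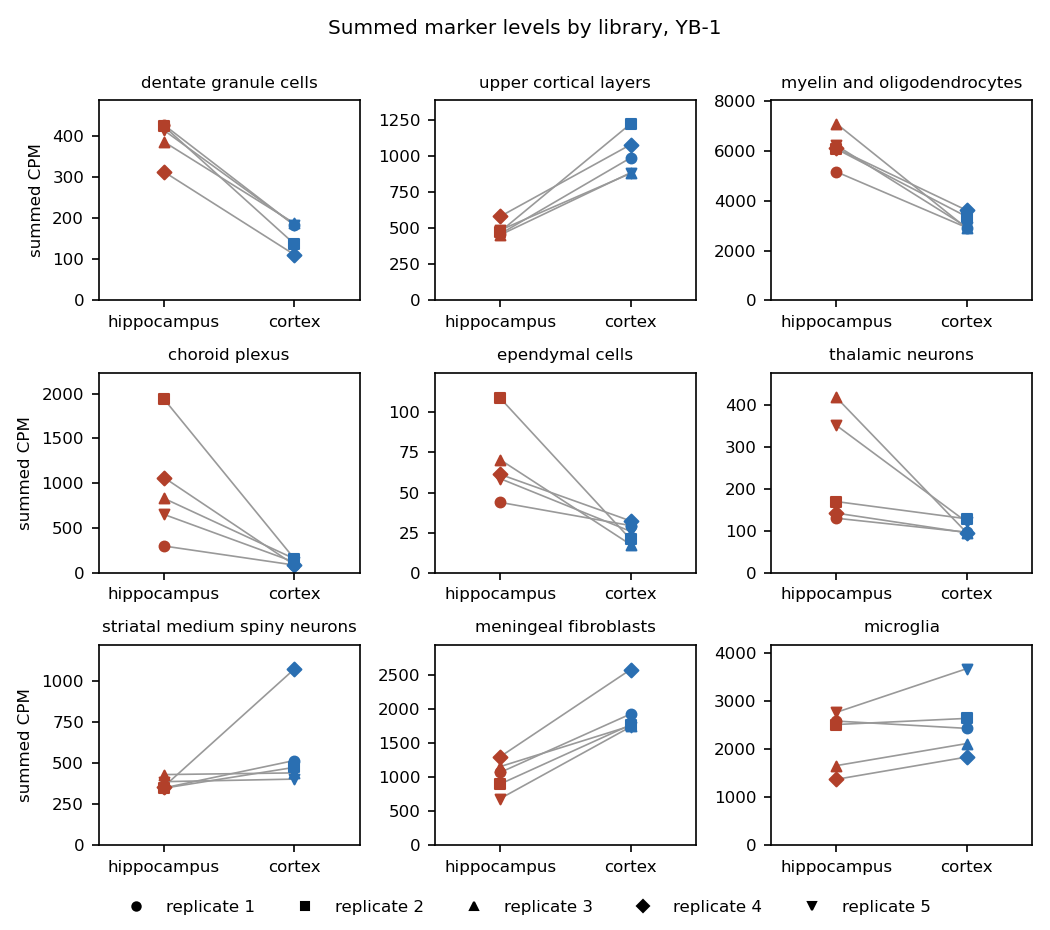
Summed TMM-scaled CPM of 9 marker lists in each of the 10 YB-1 libraries, with lines joining libraries of the same replicate number; each axis starts at 0. Hippocampal replicates 3 and 5 stand apart in the thalamic list and hippocampal replicate 2 in the choroid list. Cortical replicate 4 stands apart in the striatal list. Each sum shown except the microglial one differs between the regions in the same direction in all 5 pairs. The meningeal sum is mostly Ptgds.

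Among 19 tested genes of GABAergic neurons, the inhibitory interneurons of both regions, 4 were lower and 2 higher in the hippocampus (median -0.17). Without the pairs of replicates 3 and 5 there were 0 lower and 2 higher, and without the replicate block 2 and 2. Calb2, the calcium-binding protein calretinin, was at 68.9, 63.8, 117, 82.4 and 93.7 CPM in the hippocampus and 14.3, 17.4, 20.5, 17.8 and 13.7 CPM in the cortex. It was higher in 5 of 5 pairs (2.33 ± 0.16, adjusted p = 1.91e-09), and its hippocampal values were highest in replicates 3 and 5. Without those pairs its log2 fold change was 2.12. Vip, a peptide of disinhibitory interneurons, was 2.41-fold lower (-1.27 ± 0.24), Cort, the peptide cortistatin, 3.30-fold (-1.72 ± 0.37) and Crhbp, which binds corticotropin-releasing hormone, 1.80-fold (-0.85 ± 0.18). Without the replicate block Cort (adjusted p = 0.0539) and Crhbp (0.12) did not pass. Gad1, the main synthetic enzyme of GABA and outside the rule for named genes, differed by -0.02 ± 0.14 (95% interval -0.32 to 0.27) and did not pass.

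Neuropeptide genes were lower in 5 of 16 tested cases and higher in 1 (median -0.27), and in 2 and 0 without the pairs of replicates 3 and 5. The higher member, the thyrotropin-releasing hormone gene Trh, did not pass without the pair of replicate 1, 2 or 3 or without the block. Npy, neuropeptide Y, was at 48.9, 23.5, 36.0, 29.1 and 36.1 CPM in the hippocampus and 69.0, 71.3, 99.7, 113 and 121 CPM in the cortex, with no overlap (-1.45 ± 0.18). Cartpt, the precursor of the CART peptides, was 5.54-fold lower (-2.47 ± 0.29), Crh, corticotropin-releasing hormone, 3.67-fold (-1.88 ± 0.41) and Pdyn, prodynorphin, 1.77-fold (-0.82 ± 0.18). Of 21 peptide receptors 3 were higher and 4 lower, but 1 was higher without the pair of replicate 2 or 3, and 2, 2 and 1 were lower without those of replicates 3, 4 and 5. Without both 3 and 5, 1 was higher and 1 lower, and without the block 1 was higher. The Y2 receptor gene Npy2r was 5.25-fold higher (2.39 ± 0.40) while its ligand gene Npy was lower, and the cholecystokinin receptor gene Cckbr was 3.60-fold lower (-1.85 ± 0.19).

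Receptor subunits for glutamate and GABA passed in both directions. Among 17 ionotropic glutamate receptor subunits 3 were higher and 1 lower (median -0.01), and 1 was higher without the pair of replicate 4 or 5 or without the block. Without both 3 and 5, 1 was higher and 0 lower. Gria1, the GluA1 subunit of AMPA receptors, was at 488, 599, 537, 409 and 502 CPM in the hippocampus and 184, 166, 254, 189 and 206 CPM in the cortex (1.35 ± 0.14, adjusted p = 6.15e-07). Its lowest hippocampal value was above its highest cortical one. The kainate receptor subunit gene Grik3 was 1.78-fold lower (-0.83 ± 0.18). Of 7 metabotropic glutamate receptors 0 passed in edgeR's quasi-likelihood test, DESeq2 or limma-voom, with 3 at an unadjusted p under 0.05. In the GABA receptor list 1 of 14 was higher and 2 were lower (median -0.07), and 1 and 1 without the pairs of replicates 3 and 5. Gabra5, the α5 subunit of extrasynaptic receptors, was at 59.0, 43.7, 48.5, 52.7 and 46.4 CPM in the hippocampus and 9.57, 10.9, 17.1, 9.27 and 12.96 CPM in the cortex, far apart in each pair (2.08 ± 0.18). Gabrd, the δ subunit, was 2.24-fold lower (-1.17 ± 0.15) and Gabra3, the α3 subunit, 2.16-fold lower (-1.11 ± 0.17).

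Steroid, monoamine and acetylcholine receptors included 6 higher and 5 lower genes of 28 tested (median -0.14). Without the pair of replicate 5 there were 3 higher, and without replicate 1, 3 or 4 there were 2, 2 and 3 lower. Without both 3 and 5, 1 was higher and 1 lower. The serotonin receptor genes Htr1a (1.05 ± 0.22) and Htr4 (3.38 ± 0.58) were higher, the latter from 0.254 ± 0.366 CPM in the cortex to 2.71 ± 0.444 CPM. Adrb1, the β1 adrenoceptor, was 1.93-fold lower (-0.95 ± 0.18).

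Potassium channel genes leaned to the cortex, with 16 of 49 tested lower and 3 higher in the hippocampus (median -0.22), and 6 lower and 2 higher without the pairs of replicates 3 and 5. The lower genes included Kcnt1, a sodium-activated channel (-1.47 ± 0.18), Kcnh3 of the EAG family (-0.97 ± 0.13), and the modifying subunits Kcnf1 (-1.05 ± 0.17) and Kcnab3 (-1.30 ± 0.20). Kcng2, a modifier of Kv2 channels, was the one member over 4-fold higher, at 31.1 ± 11.2 CPM in the hippocampus and 7.22 ± 2.81 CPM in the cortex (2.12 ± 0.18). Of 27 sodium, HCN and calcium channel genes 3 were higher and 4 lower, and 3 and 2 without those pairs. The T-type channel gene Cacna1h (1.04 ± 0.17), the β subunit genes Cacnb2 (1.04 ± 0.16) and Scn3b (0.84 ± 0.15) were higher, and Cacnb3, another calcium channel β subunit, was lower (-0.61 ± 0.13).

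EF-hand calcium-binding proteins split by member, with 5 of 20 higher and 3 lower (median -0.19), and 5 lower without the pair of replicate 4. Cabp7, Calb2 and Hpca, described above, were higher, whereas Cabp1, a regulator of calcium channels, was 2.74-fold lower (-1.45 ± 0.14) and Necab3 2.35-fold lower (-1.23 ± 0.17). In calcium-calmodulin signalling 4 of 25 genes were higher and 6 lower, 2 were higher without the pair of replicate 2, and 2 were higher and 3 lower without those of replicates 3 and 5. Ryr3, a calcium release channel of the endoplasmic reticulum, was 4.50-fold higher (2.17 ± 0.29). Camkk2, an upstream kinase, was 2.34-fold lower (-1.23 ± 0.14) and Camk2g, a CaMKII subunit, 1.84-fold lower (-0.88 ± 0.14).

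Adhesion and guidance families also held members of both directions. Over all tested genes 3.76% were higher and 4.02% lower. Of 24 cadherins 4 were higher and 6 lower, and 1 and 2 without the pairs of replicates 3 and 5. Without the block 2 were higher. Pcdh20, a protocadherin, was 5.10-fold higher (2.35 ± 0.20) and Cdh6, a classical cadherin, 3.08-fold lower (-1.62 ± 0.26). Among 19 Eph receptors and ephrins 5 were higher and 2 lower, and 2 and 2 without those pairs. The receptor genes Epha7 (1.08 ± 0.18) and Epha4 (0.73 ± 0.14) and the ligand gene Efnb3 (1.12 ± 0.15) were higher, and the ligand gene Efna5 was 4.60-fold lower (-2.20 ± 0.27). Of 24 semaphorins, plexins and neuropilins 6 were higher and 4 lower, and without the pair of replicate 2, 3, 4 or 5 only 2, 1, 2 and 1 were lower, respectively. Without both 3 and 5, 2 were higher and 1 lower, and without the block 1 was lower. The co-receptor genes Nrp1 (0.95 ± 0.20) and Nrp2 (0.85 ± 0.16) were higher, as opposed to Plxnd1 above. Of 21 Wnt pathway genes 1 was higher (4.76%, near the share over all genes) and 3 were lower (14.3%). Without the pair of replicate 5 or without the block 1 was lower, and 0 without both 3 and 5. Lgr6, a receptor for R-spondins, was 2.73-fold higher (1.45 ± 0.28).

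Of 20 patterning transcription factors 6 were lower and 1 higher, with 3 lower without the pair of replicate 2, 2 without that of replicate 5 and 1 without both 3 and 5. The member that was higher did not pass without the pair of replicate 1, 2, 4 or 5 or without the block. Emx1, a homeobox factor of the developing pallium, was 2.23-fold lower (-1.16 ± 0.16). Neurotrophin genes and receptors gave 2 higher and 2 lower of 12, with 1 higher when any single pair was left out and 1 lower without the pair of replicate 5. Without the block, and likewise without both pairs 3 and 5, 0 were higher and 1 was lower. Bdnf, the brain-derived neurotrophic factor, was 1.91-fold higher (0.93 ± 0.27), and did not pass without the pair of replicate 1 or 4 or without the block (adjusted p = 0.0708). Gfra2, the neurturin receptor, was 2.15-fold lower (-1.10 ± 0.15). Among 10 tested genes of newborn neurons and progenitors 2 were higher and 1 lower, 1 was higher without the pair of replicate 3 or 5, and 0 without both. Igfbpl1, which marks newborn granule cells, was 9.57-fold higher at 2.30 ± 0.455 and 0.249 ± 0.190 CPM, whereas Stmn1, the microtubule regulator stathmin, was 2.13-fold lower (-1.09 ± 0.15).

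Immediate early genes, which neurons switch on with activity, were lower in 7 of 21 tested cases and higher in 3 (median -0.39). Without the pair of replicate 2 only 3 were lower, and without the replicate block 2 were lower and 1 was higher. Without both pairs 3 and 5, 2 were lower and 2 higher. Egr1, a zinc finger factor, was at 58.2, 132, 43.5, 61.0 and 54.6 CPM in the hippocampus and 106, 351, 106, 146 and 82.5 CPM in the cortex. Replicate 2 was the highest in both regions, the ranges overlapped, and the difference lay within pairs, each of which was lower in the hippocampus (-1.08 ± 0.14, adjusted p = 1.96e-05). Without the replicate block it did not pass (adjusted p = 0.231). Npas4, a factor of inhibitory synapse regulation, was 3.56-fold lower (-1.83 ± 0.39) and Nptx2, a secreted pentraxin, 1.74-fold lower (-0.80 ± 0.14). Nr4a3, an orphan nuclear receptor, was 3.18-fold higher (1.67 ± 0.31) and Jun, an AP-1 subunit, 1.72-fold higher (0.79 ± 0.17), the latter not without the block (adjusted p = 0.0783).

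The families of the delivered protein and of the modelled disease held 1 called gene each, near or below the shares over all tested genes. In the cold shock and chaperone list 3.57% were higher and 0% lower, and in the amyloid and tau list 0% and 4%. Over all tested genes the shares were 3.76% and 4.02%, and the difference was not tested. Of 28 cold shock domain and heat shock chaperone genes 1 was higher and 0 were lower (median 0.07), as compared with up to 2 higher and up to 1 lower when a pair was left out. Ybx1, the mouse gene of the delivered protein and outside the rule for named genes, was at 154, 134, 151, 94.5 and 106 CPM in the hippocampus and 113, 97.4, 161, 136 and 152 CPM in the cortex. The ranges overlapped, and the log2 fold change was -0.05 ± 0.16 (95% interval -0.38 to 0.28). Hspa8, the constitutive HSP70 chaperone, was at 931, 952, 1089.9, 1017 and 1013 CPM against 1027, 1018, 850.3, 1078 and 910.3 CPM, with an interval of -0.24 to 0.31 around 0.04. Carhsp1, a cold shock domain protein that binds RNA, was the member that passed, 1.60-fold higher in 5 of 5 pairs (0.68 ± 0.14, adjusted p = 0.0029). Without the pairs of replicates 3 and 5 it was at 0.69 and did not pass (adjusted p = 0.0804).

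In the list of amyloid, tau and Alzheimer risk genes 0 of 25 were higher and 1 was lower (median -0.0026). App, the amyloid precursor protein and outside the rule, was at 1060.0, 875, 927, 753 and 857 CPM in the hippocampus and 852, 787, 1106, 784 and 962 CPM in the cortex, overlapping throughout. Its log2 fold change had a 95% interval of -0.28 to 0.27. Mapt, the gene of tau and likewise outside the rule, was at 323, 312, 378, 366 and 298 CPM against 389, 458, 399, 469 and 366 CPM. It was lower in the hippocampus in 5 of 5 pairs but did not pass (-0.31 ± 0.13, adjusted p = 0.174). Cdk5r1, the activator of the tau kinase Cdk5, was lower by 1.40-fold with 5 pairs and did not pass without the pair of replicate 2, 3 or 5. None of the 28 interferon-stimulated and antigen presentation genes passed in edgeR's quasi-likelihood test or limma-voom, with 5 at an unadjusted p under 0.05, 1 called higher by DESeq2 and a median of -0.03. Of the 13 protein genes of the mitochondrial genome, 7 were tested and the other 6 had 0 to 3 reads in all 10 libraries together. The summed level of the list was 51345 to 69459 CPM in the hippocampus. Why those 6 were nearly uncounted was not tested, and mitochondrial counts are to be read with that limit. Of the 7, mt-Nd5, a subunit of respiratory complex I, was lower (-0.47 ± 0.14) but did not pass without the pair of replicate 2, 3, 4 or 5 or without the block (adjusted p = 0.146).

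The regional contrast under HSP70, from 10 other libraries, is set beside that under YB-1. The same fit called 1802 of 14307 genes (12.6%) with HSP70, 856 higher (5.98%) and 946 lower (6.61%). The HSP70 cortical libraries were deeper, at 12283392 to 15148078 reads. Of the 1065 genes called under YB-1, 1061 were tested in both, and 1058 of them had the same sign. The genes called in both with the same sign numbered 848, which is 79.6% of the YB-1 list and 47.1% of the HSP70 list. Across the 1061 genes Pearson's r of the log2 fold changes was 0.955, and across 13623 genes tested in both it was 0.774, as a description across genes that are not independent. Cabp7 was at 3.45 ± 0.15 under YB-1 and 3.57 ± 0.14 under HSP70, Lamp5 at -2.20 ± 0.15 and -2.25 ± 0.13, and Mbp at 1.11 ± 0.14 and 1.64 ± 0.12.

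The difference between the 2 regional contrasts was tested in all 20 libraries with the replicate number within each treatment as a block. Same-numbered HSP70 libraries deviated together as well, with correlations over 14307 genes of 0.635, 0.218, 0.168, 0.191 and 0.238 for replicates 1 to 5. None of 14616 genes passed in edgeR's quasi-likelihood test (0.00%), 409 had an unadjusted p under 0.05 (2.8%), and the smallest adjusted p was 0.999. DESeq2 and limma-voom also called 0, with 442 and 433 genes at an unadjusted p under 0.05. In simulated counts of this design 84.8% of 66 differences of 4-fold, 38.8% of 67 of 2-fold and 10.4% of 67 of 1.5-fold were recovered. So many planted differences, with 94 calls, ease the adjusted threshold as compared with 0 calls here. The power for a few true differences could therefore be lower, and differences of 2-fold or less could be missed. The smallest unadjusted p values belonged to Perp, a membrane protein induced by p53, whose contrast was higher under YB-1 by 1.71 ± 0.44, and to Zfp811 (1.94 ± 0.49) and Smim10l1 (1.18 ± 0.32). In the other direction they belonged to the carbonyl reductase gene Cbr2 (-3.57 ± 0.96), Gm26644 (-1.64 ± 0.45) and Gm13456 (-1.81 ± 0.50), all with an adjusted p of 0.999. Some genes of the marker lists, outside the rule for the treatment difference, are given as log2 estimates of YB-1 minus HSP70. They were 2.53 ± 0.78 for Otx2 and 2.04 ± 0.84 for Clic6 of the choroid plexus. For C1ql2, Prox1, Lamp5 and Cux2 they were 0.01 ± 0.29, 0.48 ± 0.30, 0.05 ± 0.19 and -0.20 ± 0.17. None of these passed. Median regional contrasts under YB-1 and HSP70 were 3.27 and 2.74 for the choroid list. They were 1.46 and 1.47 for the dentate list and -1.15 and -1.09 for the upper layers.

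**Figure D5:**
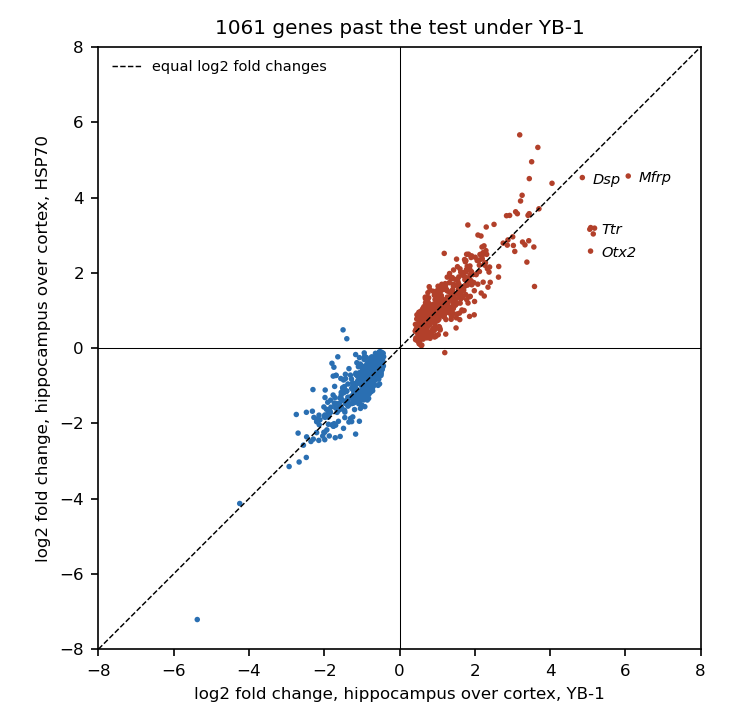
Log2 fold change of the hippocampus over the cortex under HSP70 against that under YB-1, for 1061 genes called under YB-1 and tested in both, red where higher and blue where lower in the hippocampus under YB-1; the dashed line marks equal values. The points follow the line (Pearson's r 0.955), and the choroid plexus genes Ttr and Otx2 lie below it, although no gene passed the test of the difference.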

How the data were processed

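RNA of hippocampus and cortex was sequenced in 20 libraries, 5 of each region and treatment. The authors deposited raw counts per gene, 1 table per library. Per the submitters' processing notes, Trimmomatic, STAR, featureCounts and the GRCm39 genome were used; their versions and the strand setting were not stated. Overlapping genes therefore cannot be told apart. The 12 summary entries of each table were dropped, leaving 55487 genes. In the 10 YB-1 libraries reads in no gene and in more than 1 gene came to 2.45 to 4.46% and 4.20 to 4.58% of reads, and the short RNA Bc1 took 3.92 to 20.8% of the counts. Symbols came from GENCODE M21 (99.38% of identifiers), and RefSeq promoter windows are of GRCm38.p6. No coordinates of the files' build were used.

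Counts of the 10 YB-1 libraries were filtered (filterByExpr), TMM-scaled and fitted in edgeR 4.0.16 (R 4.3.3) with robust quasi-likelihood and the replicate as a block. P-values were adjusted over all tested genes (Benjamini-Hochberg, 0.05). Equal replicate numbers were taken as pairs by the definition of the comparison. Same-numbered deviations correlated above 0.1 in each pair of both treatments. Some libraries of unequal number did so too, up to 0.387 under YB-1 and 0.214 under HSP70. The correlations therefore cannot settle which libraries came from the same animal. SE is the log2 fold change divided by the square root of F. Genes were named by a rule: the 10 of smallest p and the 10 of largest fold in each direction (mean of at least 1 CPM in the higher region, no overlap), up to 4 called members of each list per direction by p, the 3 members of highest level in the treatment protein and disease lists, the 3 of smallest p per direction in the treatment difference, and the 5 most abundant genes per region. Members and lists were chosen with earlier results of these data known, and lists share genes. Some genes named by the rule are not reported here. On counts simulated for the regional comparison over 13694 genes, 97% of 4-fold, 68.7% of 2-fold and 23.9% of 1.5-fold changes were recovered, with 8 false among 134 calls. The data gave 1065 calls, which eases the adjusted threshold as compared with the simulation. Recovery in the data could therefore be higher than these shares. Alternatives used DESeq2 1.42.0, limma-voom 3.58.1, other scalings and filters, no block, all 20 libraries and 4 of the 5 pairs. The fit without 2 pairs was chosen after seeing the data.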

Additional observations from a re-analysis of the deposited data

Results flagged for a closer look

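In 14 of 118 groups of 5 libraries the highest library stood apart from the other 4 by Dixon's criterion at the 95% level. Chance alone flags about 1 in 20 groups drawn without regard to their values. These groups overlap in genes, and Drd2, a member of the striatal list, was singled out after its values were seen. The count of 14 therefore cannot be set against that rate. Cortical replicate 4 was highest in Drd2 (51.05 CPM), in the summed striatal list (1072 CPM), in Mbp (1681 CPM) and in the summed meningeal list (2582 CPM). Hippocampal replicate 4 was highest in the summed upper-layer list (582.1 CPM) and the summed deep-layer list (883.7 CPM). Replicate 2 was highest in Egr1 in both regions, at 131.9 CPM in the hippocampus and 351.2 CPM in the cortex. In the same replicate Dsp reached 35.53 CPM in the hippocampus, and Neurod6 29.53 CPM and the summed erythroid list 741.5 CPM in the cortex. Replicate 1 was highest in Rasgef1c in the hippocampus (12.25 CPM) and in Mobp in the cortex (175 CPM), and replicate 3 in Cabp7 in the hippocampus (211.3 CPM). The log2 fold changes without the replicate concerned were 3.51 for Cabp7, -2.77 for Rasgef1c, 1.90 for Neurod6, 1.19 for Mbp, 1.41 for Mobp and -0.997 for Egr1, and each of these 6 genes still passed.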

How the results depend on the processing

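Without the replicate block 775 genes were called, 377 higher and 398 lower, as compared with 1065 with it. Among 201 genes named by the rule and tested in that fit, 29 did not pass without the block and 2 turned direction. Leaving out each pair in turn gave 723 to 1013 called genes, 350 to 519 higher and 373 to 494 lower. Without the pairs of replicates 3 and 5, chosen after seeing the data, 412 were called, 187 higher and 225 lower, from fewer libraries. Without a filter on low counts 116 genes were higher past 2-fold, as compared with 68, and the treatments differed in 8 genes of 29216, as compared with 0 of 14616. Other scalings, filters, tools and the fit of all 20 libraries kept the counts within 1.5 times. Genes that turned direction had not passed. Aplp1 was at -0.009131 without the block and between -0.09838 and 0.119 with a pair left out, and Bc1 at 0.04685 and between -0.2534 and 0.1996. With a pair left out Hspa8 ranged from -0.04271 to 0.101, mt-Nd1 from -0.1372 to 0.1404 and mt-Nd2 from -0.1785 to 0.01306. The cause was not tested. With 5 pairs, 1.5-fold differences were often missed in the simulated counts, which gave fewer calls than the data.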

Other observations

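The summed level of 28 interferon-stimulated and antigen presentation genes was 8505, 9014, 5474, 3524 and 10799 CPM in hippocampal replicates 1 to 5 and 8059.9, 9234, 6132, 3874 and 14657 CPM in cortical replicates 1 to 5. Replicate 5 was highest and replicate 4 lowest in both regions. The summed microglial level was 2577, 2505, 1652, 1368 and 2758 CPM in the hippocampus and 2426, 2633, 2111, 1830.4 and 3665 CPM in the cortex, again with replicate 5 highest and replicate 4 lowest. What sets these replicates apart is not given in the labels.

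Long noncoding RNAs and other genes that do not code for protein made up 5.45% of the genes lower in the hippocampus and 1.17% of those higher, against 5.27% of all tested genes. This difference was not tested.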
